A study of Mus musculus with 9 samples.

Results

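Intergenic bidirectional regions that lie close to genes, but not at their ends, were followed over the first 30 min of Firre induction in mouse embryonic stem cells. A bidirectional region is a place from which RNA polymerase sets off in both directions, and PRO-seq reads were counted over 600 bp at each (mm10 coordinates). A region was taken when its centre lay outside every RefSeq protein-coding, lncRNA and transcribed pseudogene annotation and 1 to 15 kb from the nearest gene end. This gave 35552 of the 174289 regions in the table (20.4%), with 12871 at 1 to 5 kb, 13004 at 5 to 10 kb and 9677 at 10 to 15 kb. The rule uses position alone. The cells carried the genotype Firre KO with a doxycycline-inducible Firre transgene in all groups, controls included. Libraries came from cells without doxycycline (0 min) and from cells given 1 ng/μL doxycycline for 15 or 30 min, with 3 libraries at each time, numbered 1 to 3 by their titles. No library had doxycycline without the transgene, so an effect of the drug and one of the transgene cannot be told apart. Separate cultures are not stated for the 3 libraries of any time, so p-values measure the spread between libraries, which may be technical.

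PRO-seq labels the RNA made by engaged polymerases in isolated nuclei, so its reads show where polymerase is transcribing rather than which RNAs have accumulated. Outside genes such reads come from several known sources. Upstream of a start they include antisense transcription from the promoter and enhancers, which are themselves transcribed in both directions. Downstream of a gene they include polymerase that has passed the polyadenylation site and has not yet been released by the termination machinery, in which the exonuclease Xrn2 takes part. Firre is an X-linked long non-coding RNA that stays in the nucleus. The study asked what follows its induction within minutes.

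The region counts came to between 3813365 and 5980366 reads per library, where 3 reads equal 0.502 to 0.787 CPM (reads scaled to a common library size with TMM factors). The transgene responded, with 3.34 ± 1.37, 295 ± 37.1 and 785 ± 7.33 CPM (SD, n = 3 each) summed over the Firre regions at 0, 15 and 30 min. None of the intergenic regions had Firre as its nearest gene. At gene ends the stem cell markers Sox2, Nanog, Zfp42 and Klf4 averaged 287, 305, 30.8 and 49.5 CPM over the 9 libraries. The fibroblast genes Col1a1, Thy1 and Twist2 averaged 0.362, 1.39 and 0.385 CPM, and the primitive endoderm genes Gata4, Gata6 and Sox7 0.853, 0.360 and 2.69 CPM. The other markers looked up had no region at a gene end. These were Pou5f1 and Esrrb (stem cell), Col1a2, Col3a1 and Postn (fibroblast), and Sox17 and Foxa2 (primitive endoderm). The library 15 min 3 stood apart in a principal component analysis, scoring 85.6 on the second component (13.9% of variance) where the others scored -55.1 to 16.5. The -55.1 was that of library 0 min 2. On the first component (27.6% of variance) 0 min 2 scored 37.4, against 80.7 and 77.9 for 0 min 1 and 3.

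Most of these windows held few reads. Their median level over the 9 libraries was 0.554 CPM, against 3.36 CPM for regions within 1 kb of a gene end, and the filter on low counts left 10175 of 35552 (28.6%) for testing. Of the rest, 8149 averaged fewer than 1 read per library. A region can pass this filter through the time at which it is high, so the counts below describe the tested regions and not all 35552. Windows of 9834 (27.7%) overlapped another window of the table, whose reads they may share. The 35552 regions had 10984 nearest genes, and neighbours of 1 gene are not independent.

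The sequences shown first are mature miRNAs that lie inside a counted window, since they mark what is encoded there. They are RefSeq sequences on GRCm38.p6 (mm10), written 5′ to 3′ with the seed, bases 2 to 8, in capitals. The first lies at chr9:21613452-21613477 on the minus strand, in a window 2.85 kb before the start of Smarca4, an ATPase subunit of chromatin remodelling complexes.
mmu-miR-1946b: gCCGGGCAgugguggcacaugcuuuu
Its window was chosen for display after its values were seen, because it was the 1 miRNA window among 11 tested that changed (9.09%, near the 8.25% called in either direction at 15 min over all tested regions). It had 37.9, 42.1 and 45.6 CPM at 0 min, 21.7, 23.6 and 30.8 CPM at 15 min and 51.4, 46.0 and 41.7 CPM at 30 min. All 3 libraries of 15 min lay below all others. The fall at 15 min was -0.73 ± 0.16 on the log2 scale (SE, adjusted p = 0.00415), and at 30 min the value was 0.15 ± 0.15 against 0 min (adjusted p = 0.684). Between 30 and 15 min the window near Smarca4 rose by 0.88 ± 0.15 (adjusted p = 0.00248). The other windows shown did not pass the test at any time, and they are given to show which loci the windows cover.
mmu-miR-7671-5p: aGGCUCCGcucuggcuagcuucc
mmu-miR-7671-3p: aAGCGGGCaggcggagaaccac
mmu-miR-193a-5p: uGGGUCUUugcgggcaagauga
mmu-miR-193a-3p: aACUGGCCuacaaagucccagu
The pair of miR-7671 lies 6.57 kb before the start of Irf1, an interferon-regulated transcription factor, in a window with 78.7 ± 5.75, 64.0 ± 3.51 and 67.1 ± 5.41 CPM at 0, 15 and 30 min (SD, n = 3 each). The pair of miR-193a lies 6.78 kb past the end of Gm11205, with 15.7 ± 0.807, 12.2 ± 5.85 and 16.3 ± 1.13 CPM. The 5 arms shown have 5 different seeds.

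At 15 min these intergenic regions rose far more often than they fell. Of 10175 tested, 817 (8.03%) rose and 204 (2.00%) fell against 0 min, where over all 54299 tested regions of the series 4.29% rose and 3.96% fell (edgeR quasi-likelihood test, Benjamini-Hochberg adjusted p at most 0.05). In either direction 10.0% were called, against 8.25% of all regions. The median log2 change was 0.15 for the intergenic regions and 0.02 for all regions. CPM values in the 15 min libraries did not overlap those at 0 min for 787 of the 817 that rose (96.3%) and 202 of the 204 that fell (99.0%), against 96.8% and 94.6% of all regions called higher and lower. The other intergenic regions, over 15 kb from a gene end, had 473 of 9037 higher (5.23%) and 65 lower (0.719%), with a median of 0.26. Regions within 1 kb of a gene end had 271 of 15008 higher (1.81%) and 1206 lower (8.04%), with a median of -0.16. Whether these shares differ from those of the regions 1 to 15 kb away was not tested. The 817 that rose belonged to 707 nearest genes, and 95 genes had more than 1 of them. Without library 15 min 3, which stood apart, 1230 regions were called, 989 higher and 241 lower. The number called was 532 without library 15 min 2, 559 without 0 min 1 and 599 without 15 min 1.

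Levels are relative, since CPM values of a library share a total. As a share of all region reads, the intergenic regions held 15.7, 16.5 and 14.7% in the libraries of 15 min, against 13.5, 14.8 and 14.5% in those of 0 min. The third library of 15 min lay within the range of 0 min, so the groups overlapped. Regions at gene ends held 45.0 ± 2.27% at 15 min, against 47.7 ± 1.47% at 0 min (SD, n = 3 each). The scaling sets the share of rises and falls. With TMM factors computed on gene ends alone, 1272 rose and 96 fell, so that 93.0% of calls were rises, against 80.0% with factors from all regions. That scaling moved the median to 0.31 for the intergenic regions and to 0.19 for all regions.

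**Figure D1:**
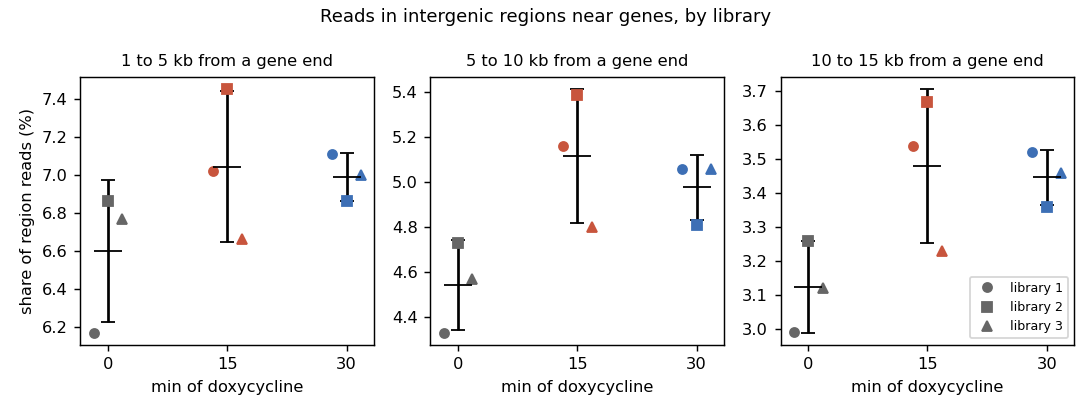
Share of all region reads (%, axes not starting at 0) held by intergenic regions 1 to 5, 5 to 10 and 10 to 15 kb from a gene end, in each of the 9 libraries at 0, 15 and 30 min of doxycycline. Points are libraries, the wide bar is the mean of 3 and the error bar its SD. At 15 min libraries 1 and 2 lie above all 0 min libraries, and library 3 lies within or near their range.

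By 30 min fewer regions were called. Of the 10175, 226 (2.22%) were higher than at 0 min and 25 (0.246%) lower, where the series as a whole had 1.24% higher and 0.497% lower (1.74% in either direction). The medians were 0.10 for the intergenic regions and -0.00 for all regions. The share of region reads was 15.7, 15.0 and 15.5% in the libraries of 30 min, all above the 0 min libraries (13.5 to 14.8%). All 226 that were higher and 24 of the 25 that were lower (96.0%) had groups that did not overlap, against 100% and 98.5% of all regions called higher and lower. The count at 30 min depended on single libraries: it was 44 without library 0 min 1, 135 without 0 min 3, and 79, 97 and 73 without libraries 1, 2 and 3 of 30 min. It was 356 without library 15 min 3.

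Directly between 30 and 15 min, the intergenic regions fell more often than they rose. The contrast called 125 (1.23%) lower and 31 (0.305%) higher at 30 min, where all regions gave 0.490% lower and 0.214% higher (0.704% in either direction). All of the 125 and 30 of the 31 (96.8%) had groups that did not overlap, against 100% and 99.1% of all regions called lower and higher. The number called was 87 without library 15 min 1, 80 without 15 min 2, 79, 63 and 90 without libraries 1, 2 and 3 of 30 min, and 182 without 15 min 3. The intergenic regions over 15 kb from a gene end gave 5 lower (0.0553%) and 3 higher (0.0332%) of 9037 tested. Whether these shares differ was not tested.

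The rise at 15 min was present at all 3 distances, and the falls lay mostly near the gene. At 1 to 5 kb, 341 of 4160 tested regions rose (8.20%) and 135 fell (3.25%), with a median of 0.09. At 5 to 10 kb, 306 of 3589 rose (8.53%) and 41 fell (1.14%), with a median of 0.18. At 10 to 15 kb, 170 of 2426 rose (7.01%) and 28 fell (1.15%), with a median of 0.17. So 135 of the 204 falls were within 5 kb. At the limits of the choice the values ran on without a step on the near side: the median was -0.11 for 141 regions at 1.0 to 1.1 kb and -0.11 for 144 just inside 1 kb. On the far side it was 0.20 for 445 regions at 14 to 15 kb and 0.10 for 360 just beyond 15 kb.

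At 30 min against 0 min the medians were 0.07, 0.13 and 0.13 in the same order of distance. Of 4160, 3589 and 2426 tested, 88, 76 and 62 regions were higher and 15, 5 and 5 lower. All regions of the series had 1.24% higher and 0.497% lower. Between 30 and 15 min, 70, 44 and 11 of the tested regions fell and 25, 3 and 3 rose. All regions gave 0.490% lower and 0.214% higher. Most of the regions that rose between 15 and 30 min were therefore within 5 kb of a gene, where 4160 of the 10175 tested regions lay.

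The side of the gene on which a region lay split these patterns further. The strand of the nearest gene, and so its start, was known for 27191 of the 35552 (76.5%). Past the end of the nearest gene, 393 of 3732 tested regions rose at 15 min (10.5%) and 72 fell (1.93%), with a median of 0.19. Before the start, 211 of 4022 rose (5.25%) and 96 fell (2.39%), with a median of 0.10. Where the strand was not known, 213 of 2421 rose (8.80%) and 36 fell (1.49%). Regions of both sides had like levels, with median CPM values of 4.76 past the end and 4.54 before the start.

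Within 5 kb before the start, rises and falls were close to balanced, at 104 and 74 of 1670 regions, with a median of 0.00. In the bins of 1 kb nearest to the start the median was -0.07 and -0.04, and it was 0.06 and 0.09 in the next ones. With factors from gene ends the median of the 1670 was 0.17, with 157 rises and 39 falls, so its sign depends on the scaling. At 5 to 10 and 10 to 15 kb before the start the medians were 0.16 and 0.17. Past the end the medians were 0.17, 0.22 and 0.16 at the 3 distances, and 149, 162 and 82 regions rose. The bin at 6 to 7 kb past the end had a median of 0.28, and 43 of its 293 regions rose (14.7%).

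**Figure D2:**
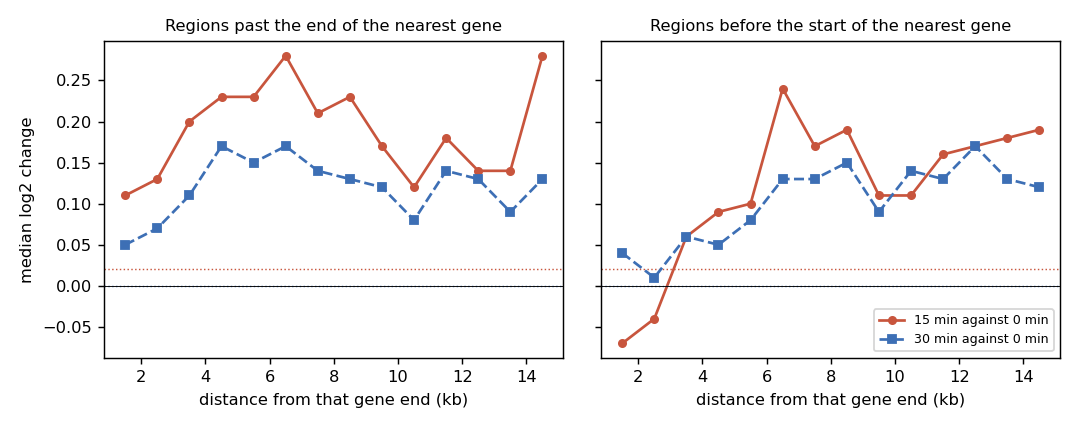
Median log2 change of tested intergenic regions (y axis) by distance in kb from the nearest gene end (x axis, bins of 1 kb), past the end of the gene on the left and before its start on the right. The solid line is 15 min against 0 min and the dashed line 30 min against 0 min. The dotted lines are the medians of all regions at each of these times, 0.02 at 15 min. Past the end all bins are above 0 at both times, while before the start the 2 nearest bins are at -0.07 and -0.04 at 15 min.

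The return between 15 and 30 min also differed in count by side. Past the end 79 of 3732 regions fell between 15 and 30 min (2.12%) and 7 rose. Before the start 18 of 4022 fell (0.448%) and 19 rose (0.472%). Of those 19, 17 were within 5 kb of the start, where 13 fell. With factors from gene ends 12 rose and 19 fell before the start, 11 and 14 of them within 5 kb. Without library 15 min 1 these counts were 6 and 13, then 5 and 8. When each library was left out in turn, rises before the start ranged from 6 to 22 and falls from 9 to 20, while falls past the end ranged from 32 (without 30 min 2) to 89. At 30 min against 0 min, 94 regions past the end were higher and 12 lower, and 79 before the start were higher and 5 lower. The difference between the sides was not tested.

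Because each region was placed by its nearest gene, a region before the start of 1 gene can also lie past the end of another. Of the 4022 tested regions before a start, 834 had another gene of known strand ending within 15 kb and facing them. Of these 68 rose (8.15%) and 25 fell (3.00%) at 15 min. Of the 3188 without such an end, 143 rose (4.49%) and 71 fell (2.23%).

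The count of the nearest gene's own end region was used to sort the regions next. Of a gene's regions within 1 kb of either end, the one with the highest count stood for the gene, and the limits between low, middle and high were 1.78 and 14.4 CPM. Near genes with a high count, 368 of 3548 regions rose at 15 min (10.4%) and 97 fell (2.73%). The middle class had 147 of 2335 higher (6.30%) and 56 lower (2.40%), and the low class 78 of 1441 higher (5.41%) and 17 lower (1.18%). Near genes with no such region, 224 of 2851 rose (7.86%) and 34 fell (1.19%). The medians did not follow this order, at 0.14, 0.09, 0.12 and 0.19 for high, middle, low and none.

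The intergenic regions near high-count genes were themselves deeper, with a median of 6.58 CPM, against 3.91, 3.28 and 4.64 CPM for middle, low and none. Depth moves with the share called: with the tested regions cut by level into 4 equal parts, low to high, 2.44, 4.72, 8.34 and 16.6% rose at 15 min, while the medians were 0.24, 0.14, 0.09 and 0.13. Its part in the order of the classes was not tested. At 30 min against 0 min, 101 regions near high-count genes were higher (2.85%) and 9 lower, with a median of 0.12. The middle, low and none classes had 24, 29 and 72 higher, with medians of 0.05, 0.09 and 0.12.

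Side and count were then combined. Past the end of high-count genes 182 of 1259 regions rose at 15 min (14.5%) and 28 fell (2.22%), with a median of 0.21. At 5 to 10 kb past these ends 77 of 440 rose (17.5%) and 9 fell, with a median of 0.31. Before the start of high-count genes and within 5 kb, 45 of 657 rose and 45 fell (6.85% each), with a median of -0.05. With factors from gene ends that median was 0.11, with 60 rises and 25 falls. Without library 0 min 1 there were 20 rises and 28 falls. In that last group 14 regions rose between 15 and 30 min and 2 fell, whereas in the 440 past the end 2 rose and 20 fell. Without single libraries the 14 ranged from 5 to 14 and the 20 from 7 to 21.

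**Figure D3:**
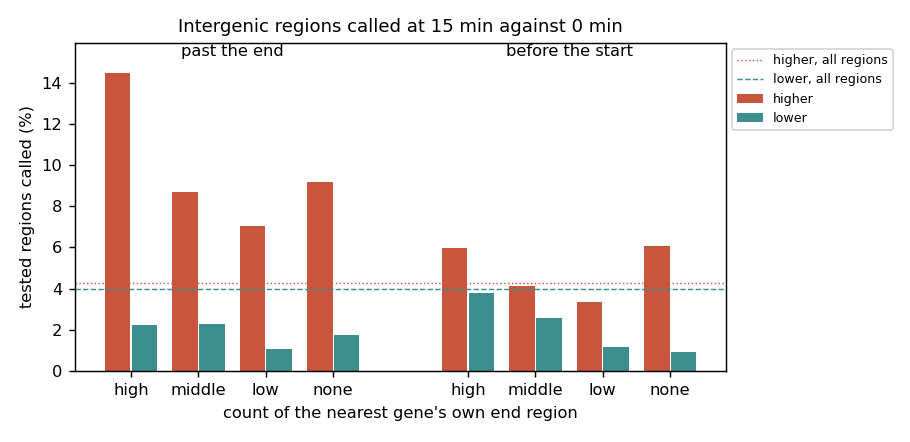
Share of tested intergenic regions (%) called higher (left bar) and lower (right bar) at 15 min against 0 min, past the end and before the start of the nearest gene, by the count of that gene's own end region. Horizontal lines mark the shares over all regions, 4.29% higher and 3.96% lower. Past the end of high-count genes 14.5% rose, and before the start of high-count genes 5.98% rose and 3.79% fell.

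Other features of the nearest gene and of the window were looked at next, and no comparison among features was tested. Near protein-coding genes 601 of 6502 regions rose at 15 min (9.24%) and 142 fell (2.18%), with a median of 0.17. Near lncRNA genes 201 of 3551 rose (5.66%) and 61 fell (1.72%), with a median of 0.11. On the X chromosome, where Firre lies, 32 of 296 tested regions rose (10.8%) and 2 fell. Chromosomes 1 and 3 had 10.8% and 11.5% higher, so the X share was not the highest. Among 1707 regions whose window overlapped another, 57 rose (3.34%), against 760 of 8468 without overlap (8.97%), and their median levels were 3.21 and 5.24 CPM. Of 83 tested windows over a tRNA gene, 0 rose and 2 fell, with a median of -0.21.

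The 6 largest rises at 15 min under the naming rule lay next to Slc45a3, Trps1, Arih1, Orc5, Arhgap5 and Actr5. The window near Slc45a3, a solute carrier gene, lies at chr1:131950143-131950742, 12.5 kb before the start. It had 1.24, 0.895 and 1.05 CPM at 0 min, 7.33, 12.2 and 7.53 CPM at 15 min and 2.00, 2.42 and 1.66 CPM at 30 min. Every 15 min library was above every other library, and the 30 min libraries were above those of 0 min by little. The 0 min values rest on 7, 4 and 4 reads, so this window may have passed the filter on low counts only through 15 min. The log2 change was 3.04 ± 0.38 at 15 min (SE, adjusted p = 9.60e-06) and 0.92 ± 0.46 at 30 min (adjusted p = 0.347), both against 0 min. Between 30 and 15 min it fell by 2.13 ± 0.33 (adjusted p = 7.22e-04).

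Trps1 is a GATA-type transcriptional repressor, and its window at 6.96 kb lies at chr15:50647501-50648100. It had 5.31, 6.27 and 6.03 CPM at 0 min, 38.7, 47.9 and 37.2 CPM at 15 min and 18.2, 16.2 and 26.5 CPM at 30 min. The groups did not overlap, and 30 min lay between the other times. The log2 change was 2.82 ± 0.21 at 15 min (adjusted p = 2.33e-09) and 1.78 ± 0.22 at 30 min (adjusted p = 5.14e-05). At its own ends Trps1 had 20.5, 18.5 and 18.8 CPM at 0, 15 and 30 min, not called at 15 min (-0.16 ± 0.17, adjusted p = 0.624).

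Past the 3′ end of Arih1, an E3 ubiquitin ligase, a window at 3.72 kb (chr9:59384537-59385136) stayed up at 30 min. It had 6.02, 8.06 and 3.15 CPM at 0 min, 38.3, 42.7 and 31.6 CPM at 15 min and 26.2, 18.6 and 24.7 CPM at 30 min. The log2 change was 2.68 ± 0.23 at 15 min (adjusted p = 3.09e-08) and 1.98 ± 0.24 at 30 min (adjusted p = 2.96e-05), which made it the largest rise at 30 min under the rule. The difference between 30 and 15 min, -0.70 ± 0.19, did not pass the test (adjusted p = 0.109).

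Orc5 encodes a subunit of the origin recognition complex. The window 10.3 kb past the end of Orc5 had 3.72, 4.70 and 4.98 CPM at 0 min, 26.3, 30.9 and 22.8 CPM at 15 min and 11.8, 6.52 and 10.4 CPM at 30 min. The window 9.12 kb past the end of Arhgap5 had 7.26, 13.7 and 12.1 CPM at 0 min, 64.3, 63.7 and 52.7 CPM at 15 min and 16, 18.8 and 19.4 CPM at 30 min. At both places the 15 min libraries were above the rest, and the 30 min libraries lay between those of 15 and 0 min. The rises were 2.59 ± 0.24 near Orc5 (adjusted p = 1.52e-07) and 2.48 ± 0.19 near Arhgap5 (adjusted p = 2.62e-09). At 30 min against 0 min they were 1.11 ± 0.27 (adjusted p = 0.0285, lost without any 1 of 4 libraries) and 0.74 ± 0.20 (adjusted p = 0.0596).

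Near Actr5, a subunit of the INO80 chromatin remodeller, the window at 9.48 kb was high at 15 min alone. It had 1.42, 1.34 and 1.31 CPM at 0 min, 8.0, 6.86 and 7.77 CPM at 15 min and 0.729, 0.932 and 1.66 CPM at 30 min. The 30 min libraries overlapped those of 0 min. Reads were few outside 15 min, with 8, 6 and 5 at 0 min and 4, 5 and 7 at 30 min. This window may therefore have passed the filter on low counts only through 15 min. The rise at 15 min was 2.45 ± 0.37 (adjusted p = 1.18e-04), and the fall between 15 and 30 min, -2.79 ± 0.38, was the largest under the rule (adjusted p = 1.40e-04).

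The other large falls between 15 and 30 min were of the same shape. They lay near Rrp12, a ribosome assembly factor (2.17 kb), and Lamc1, a laminin chain (7.54 kb), and past the ends of Myo10, an unconventional myosin (10.1 kb), and Far1, a fatty acyl-CoA reductase (8.96 kb). The means at 0, 15 and 30 min were 4.67 ± 1.21, 12.5 ± 1.41 and 3.35 ± 0.508 CPM near Rrp12. They were 1.64 ± 0.886, 6.92 ± 2.64 and 2.08 ± 0.389 CPM near Lamc1. Past Myo10 they were 4.88 ± 1.43, 24.7 ± 2.97 and 7.29 ± 0.664 CPM, and past Far1 5.85 ± 0.869, 15.0 ± 2.24 and 4.50 ± 2.14 CPM (SD, n = 3 each). All 4 rose at 15 min, by 1.45, 2.13, 2.32 and 1.38 in that order of naming (Rrp12, Lamc1, Myo10, Far1), and none was called at 30 min against 0 min (adjusted p = 0.302 to 0.779). Their falls between 15 and 30 min ranged from -1.91 to -1.75, and that near Lamc1 was lost without any 1 of 5 libraries. The Lamc1 window held only 8, 4 and 10 reads at 0 min. The end regions of these 4 genes, each the deepest within 1 kb of either end and not always the end nearest the window, did not rise at 15 min. That of Far1 fell by 0.74 ± 0.22 (adjusted p = 0.0332), and the other 3 were not called (-0.54 to -0.29).

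**Figure D4:**
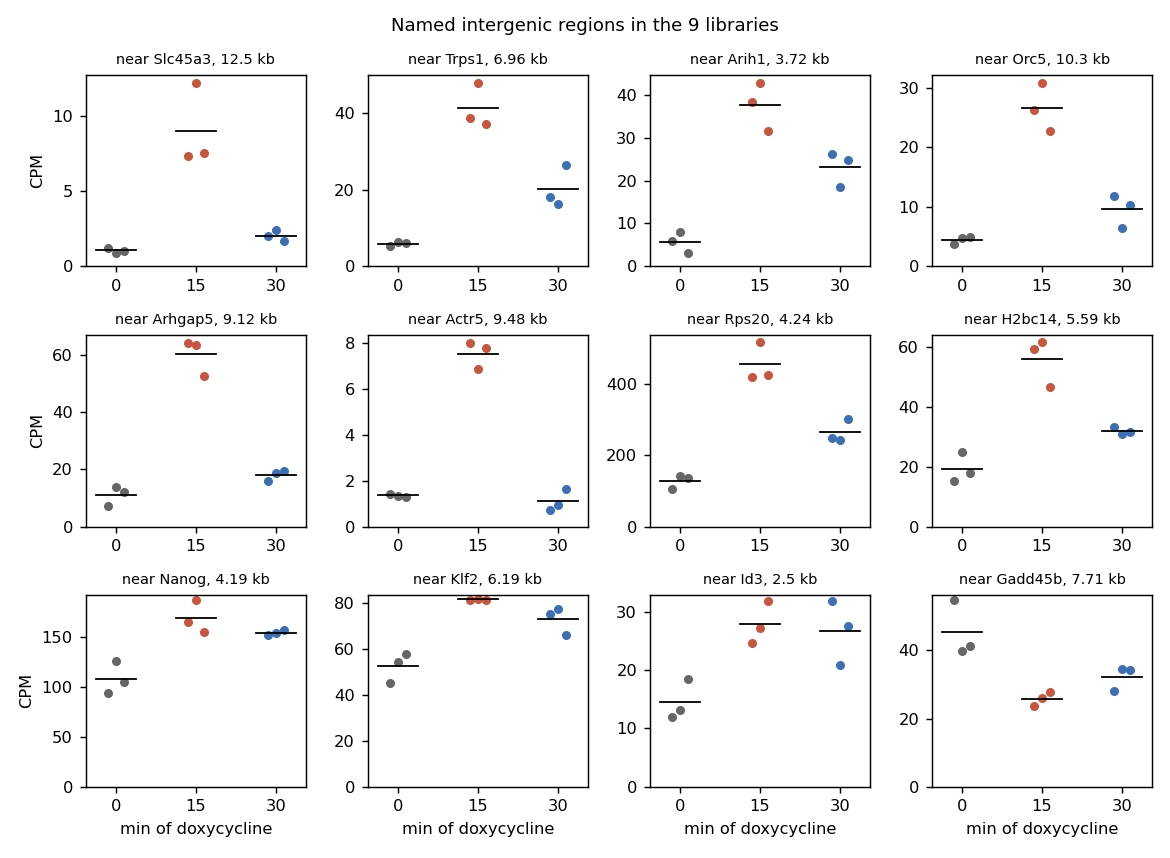
CPM (y axis, from 0) of 12 named intergenic windows in the 9 libraries at 0, 15 and 30 min of doxycycline, each labelled by its nearest gene and distance. Points are libraries and bars are means of 3. The 15 min libraries are highest in the windows near Slc45a3, Trps1, Orc5, Arhgap5 and Actr5, and lowest in the one near Gadd45b.

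The named falls at 15 min were smaller than the named rises. Those near Btbd2 and Arf1 lay shortly before a start, while the other named falls lay past an end or where the strand was not known. The largest was 2.26 kb before the start of Btbd2, a BTB domain gene, with 7.62, 6.94 and 7.34 CPM at 0 min, 2.17, 1.72 and 2.19 CPM at 15 min and 3.46, 3.91 and 3.79 CPM at 30 min. The fall was -1.84 ± 0.31 (adjusted p = 5.10e-04), and at 30 min against 0 min the value was -0.97 ± 0.29 (adjusted p = 0.0793). The window 2.06 kb before the start of Arf1, a GTPase of Golgi traffic, had 15.2, 12.8 and 17.8 CPM at 0 min, 3.00, 4.58 and 8.02 CPM at 15 min and 12.2, 13.2 and 14.2 CPM at 30 min. Here the 15 min libraries were below all others and the 30 min libraries were back among those of 0 min. The fall was -1.60 ± 0.27 (adjusted p = 4.48e-04) and the rise between 15 and 30 min was 1.39 ± 0.27 (adjusted p = 0.00740, lost without library 15 min 1). The end region of Arf1 fell too, by 0.50 ± 0.15 (adjusted p = 0.0327).

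The other 4 named falls were near Gm32168 (2.94 kb, -1.61 ± 0.27), Lsamp, a cell adhesion gene (9.15 kb past the end, -1.57 ± 0.32), Cask, a scaffold protein gene (12.1 kb, -1.53 ± 0.33), and Gm6559 (6.46 kb past the end, -1.53 ± 0.32). Their adjusted p-values ran from 5.12e-04 to 0.00436. The Cask window overlaps the tRNA gene n-TQttg1, of a multigene family whose reads could be split among copies, and had 12.6, 16.8 and 21.2 CPM at 0 min, 3.50, 5.15 and 9.23 CPM at 15 min and 9.11, 12.1 and 24.7 CPM at 30 min. Its values at 30 min spread over more than those of the other 2 times.

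Before-start windows made up most of the largest rises between 15 and 30 min. These lay before the starts of Ubxn1, a p97 adaptor (4.95 kb), Pitpnb, a phosphatidylinositol transfer protein (5.32 kb), Arf1, Gopc, a Golgi PDZ protein (2.37 kb), and Ifnar1, a chain of the type I interferon receptor (4.73 kb). The last was past the end of the lncRNA gene 0610038B21Rik (3.78 kb). Near Pitpnb the libraries had 21.4, 19.7 and 19.7 CPM at 0 min, 4.33, 9.53 and 8.02 CPM at 15 min and 26.2, 17.1 and 16.8 CPM at 30 min. Near Ifnar1 they had 15.1, 15.7 and 19.7 CPM, 5.67, 7.24 and 4.61 CPM, and 12.9, 16 and 11.9 CPM at the same times. In both, 15 min was low and 30 min overlapped 0 min. Each had a log2 change of -1.5 at 15 min, with SE 0.25 near Pitpnb (adjusted p = 3.55e-04) and 0.23 near Ifnar1 (adjusted p = 1.76e-04). The rise between 15 and 30 min was 1.49 ± 0.24 near Pitpnb (adjusted p = 0.00139) and 1.21 ± 0.23 near Ifnar1 (adjusted p = 0.00713). The end regions of both genes were not called at 15 min (0.02 ± 0.12 and -0.20 ± 0.18).

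At 30 min against 0 min, the rises after Arih1 and Trps1 were near Cldn34c1, a claudin family gene (5.46 kb past the end), Gm41159 (8.88 kb past the end), Platr27 (14.3 kb) and Gm17315 (1.52 kb past the end), the last 3 being lncRNA genes. The Cldn34c1 window had 2.66, 3.36 and 6.29 CPM at 0 min, 8.50, 10.1 and 8.74 CPM at 15 min and 14.6, 10.4 and 12.3 CPM at 30 min, and the Platr27 window 4.25, 2.01 and 4.72 CPM, 7.0, 7.24 and 6.56 CPM, and 8.56, 11.4 and 12.6 CPM. In both the mean was highest at 30 min, and the contrast of 30 with 15 min did not pass (adjusted p = 0.588 and 0.411). The rises at 30 min were 1.65 ± 0.28 near Cldn34c1 (adjusted p = 0.00261), 1.60 ± 0.35 near Gm41159 (0.0155), 1.55 ± 0.29 near Platr27 (0.00556) and 1.54 ± 0.29 near Gm17315 (0.00531). Those near Gm41159 and Gm17315 were lost without 1 of 3 and without 1 library, at adjusted p up to 0.0765 and 0.0550.

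Falls at 30 min were few and rested on single libraries. The 6 named were near Snx32, a sorting nexin (4.51 kb, -1.39 ± 0.32), Gm11725 (11.0 kb, -1.27 ± 0.33), Gadd45b (4.38 kb, -1.17 ± 0.27), Dmrt1, a transcription factor (1.91 kb, -0.99 ± 0.23), Ppme1, a phosphatase methylesterase (1.38 kb, -0.96 ± 0.24), and Gm12784 (11.1 kb, -0.92 ± 0.20). Their adjusted p-values were 0.0150 to 0.0440. Each of the 6 lost its call when some libraries were left out in turn, with adjusted p up to 0.0970 to 0.287. The calls near Gm11725 and Ppme1 were also lost with factors from gene ends.

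Some genes had a run of regions that moved together. Those described here, Gng2, Rps20, Gm36005, Gm30875 and Sall1, were named because they had the most called regions. That their regions rose together, with summed levels apart from those of 0 min, therefore follows largely from this choice. How often all tested regions of a gene were called, over all genes, was not tested. Gng2, a G protein gamma subunit, had 9 tested regions between 7.58 and 13.5 kb on both of its sides, of which 6 rose at 15 min. Their summed level was 107, 111 and 110 CPM in the libraries of 15 min, against 42.2, 57.5 and 51.9 CPM in those of 0 min, and it was 101, 99.1 and 86.3 CPM at 30 min. All libraries with doxycycline were above all those without. The median of the 9 was 1.16 at 15 min and 1.03 at 30 min, and 2 passed at 30 min. Of the 6 calls at 15 min, 3 were lost without library 0 min 1. The end region of Gng2 was low, at 2.58, 2.89 and 3.69 CPM at 0, 15 and 30 min, and was not called at 15 min (0.18 ± 0.38, adjusted p = 0.821).

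Near Rps20, a ribosomal protein gene, all 3 tested regions rose at 15 min. The nearest, at 4.24 kb (chr4:3827047-3827646), had 106, 142 and 136 CPM at 0 min, 422, 519 and 427 CPM at 15 min and 249, 243 and 303 CPM at 30 min. The 3 times did not overlap, with 30 min between the others. Its log2 change was 1.84 ± 0.12 at 15 min (adjusted p = 1.26e-10) and 1.05 ± 0.12 at 30 min (adjusted p = 9.40e-06). The regions at 10.1 and 11.9 kb rose by 0.77 ± 0.13 and 1.11 ± 0.20. The end region of Rps20 had 274, 330 and 330 CPM at 0, 15 and 30 min and was not called at 15 min (0.27 ± 0.13, adjusted p = 0.209).

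The lncRNA genes Gm36005 and Gm30875 and the zinc finger gene Sall1 each had 3 tested regions, all of which rose at 15 min. Summed levels at 15 min were 1300, 1370 and 1230 CPM near Gm36005, against 849, 899 and 980 CPM at 0 min. Near Gm30875 they were 524, 539 and 508 CPM, against 310, 365 and 394 CPM, and past the end of Sall1 256, 273 and 273 CPM, against 166, 200 and 200 CPM. In each the 2 times did not overlap. At 30 min the sums were 1190 to 1240, 491 to 537 and 235 to 254 CPM, also above 0 min. The Gm36005 end region rose with its neighbours (0.64 ± 0.14, adjusted p = 0.00523), while that of Sall1 was not called (-0.10 ± 0.11). The call of the Sall1 region at 4.71 kb (0.47 ± 0.14, adjusted p = 0.0403) was lost without any 1 of 7 libraries, that at 11.4 kb without either of 2, and the call of the Gm30875 region at 6.38 kb without library 0 min 1.

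Among genes of core and naive pluripotency, the transcription factor network and markers of these cells, 16 genes had 59 of these regions, of which 24 were tested, and 6 of the 24 rose at 15 min and 0 fell. Their median was 0.47, against 0.15 for the tested intergenic regions and 0.02 for all regions. At 15 min 8.03% of the tested intergenic regions rose and 2.00% fell, and 4.29% and 3.96% of all regions did. The counts of this and the following lists, most of them a few regions, are read against these shares. The 6 lay near Dppa5a (0.88 ± 0.15), Nanog (0.65 ± 0.11), Klf5 (0.72 ± 0.15), Dppa3 (0.92 ± 0.20), Klf2 (0.64 ± 0.13) and Nr0b1 (1.56 ± 0.34). The call near Klf5 was lost without library 15 min 2 and that near Dppa3 without 15 min 1 (adjusted p = 0.0681 and 0.0842). At 30 min against 0 min, 4 of the 24 were called higher, and between 0 and 5 when single libraries were left out.

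The window 4.19 kb before the start of Nanog, a core pluripotency factor, lies at chr6:122703002-122703601. It had 94.6, 126 and 105 CPM at 0 min, 165, 188 and 155 CPM at 15 min and 152, 154 and 157 CPM at 30 min. All libraries with doxycycline were above those without (adjusted p = 7.83e-04 at 15 min). At 30 min the value was 0.51 ± 0.11 (adjusted p = 0.0197), a call lost without any 1 of 5 libraries. Nanog's own end region had 316, 288 and 311 CPM at 0, 15 and 30 min and was not called (-0.13 ± 0.10). Likewise Klf2, a Krüppel-like factor, had a window 6.19 kb past its end with 45.2, 54.2 and 57.9 CPM at 0 min, 81.3, 81.6 and 81.4 CPM at 15 min and 75.1, 77.3 and 65.9 CPM at 30 min, and an end region that was not called (0.18 ± 0.12). Near Nr0b1 both moved: the window 4.34 kb before the start had 2.00 ± 0.546, 5.87 ± 0.752 and 3.72 ± 0.415 CPM, and the end region rose by 0.50 ± 0.12 (adjusted p = 0.00671).

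Targets of BMP and LIF, the signals that hold stem cells undifferentiated, had 12 tested regions, of which 1 rose and 0 fell at 15 min (median -0.20, and -0.03 with factors from gene ends). Without single libraries that median ranged from -0.31 to 0.18. A count of 1 in 12 is close to the share over the intergenic regions. The window at 8.30 kb from Id1, another BMP target gene of this list, overlaps another window and had 4.07, 4.70 and 5.77 CPM at 0 min, 1.83, 2.48 and 2.67 CPM at 15 min and 4.74, 4.66 and 3.56 CPM at 30 min. All 15 min libraries lay below the rest, and the value at 15 min was -1.05 ± 0.34 (adjusted p = 0.0551). With DESeq2 size factors, with library size alone and without library 15 min 3, 1 of the 12 regions was called lower. The region that rose lay 2.50 kb past the end of Id3, which encodes an inhibitor of basic helix-loop-helix factors and is a known BMP target. It had 12, 13.2 and 18.4 CPM at 0 min, 24.7, 27.3 and 31.8 CPM at 15 min and 31.9, 20.9 and 27.5 CPM at 30 min. All libraries with doxycycline lay above those of 0 min. The rise was 0.95 ± 0.20 at 15 min (adjusted p = 0.00315) and 0.90 ± 0.20 at 30 min (adjusted p = 0.0171, lost without any 1 of 3 libraries). The end region of Id3 rose alongside, by 1.03 ± 0.14 at 15 min (adjusted p = 3.99e-05), with 29.8, 60.6 and 64.7 CPM at 0, 15 and 30 min. The promoter is shown because that end region, centred 101 bp from the start, and the window past the gene's end moved together. It is the RefSeq sequence from 250 bases before to 50 after the start on GRCm38.p6, chr4:136143572-136143871 on the plus strand, and capitals mark matches to CAGAC on either strand.
Id3 promoter: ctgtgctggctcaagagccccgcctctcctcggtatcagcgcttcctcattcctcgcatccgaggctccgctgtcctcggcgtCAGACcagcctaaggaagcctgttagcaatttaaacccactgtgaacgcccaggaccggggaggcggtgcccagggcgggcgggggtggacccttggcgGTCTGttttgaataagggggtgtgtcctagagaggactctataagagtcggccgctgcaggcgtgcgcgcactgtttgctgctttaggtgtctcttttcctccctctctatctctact
The letters CAGAC, a known SMAD recognition sequence, occur 2 times, and at least once in 49.6% of the 32851 promoters of this length. The letters GGCGCC, another SMAD recognition sequence, occur 0 times, and in 11.9% of all promoters.

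Immediate early and stress response genes had 18 tested regions, of which 0 rose and 2 fell at 15 min (median -0.14, and 0.02 with factors from gene ends). Both lay near Gadd45b, a stress-inducible growth arrest gene. The window 4.38 kb before its start had 11.7, 10.5 and 9.18 CPM at 0 min, 3.33, 4.58 and 4.61 CPM at 15 min and 4.74, 5.78 and 3.32 CPM at 30 min. The window 7.71 kb past its end had 54.7, 39.8 and 41.2 CPM, 23.7, 25.9 and 27.7 CPM, and 28.1, 34.5 and 34.1 CPM at these times. In both, all libraries with doxycycline were below those of 0 min. The falls at 15 min were -1.34 ± 0.27 (adjusted p = 0.00264) and -0.82 ± 0.16 (adjusted p = 0.00158). The end region of Gadd45b fell as well, to 98.2 CPM at 15 min and 137 CPM at 30 min, against 224 CPM at 0 min (-1.19 ± 0.12 at 15 min, adjusted p = 3.17e-07).

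Replication-dependent histone genes, whose transcripts end by a pathway of their own without polyadenylation, had 9 tested regions, of which 2 rose and 0 fell at 15 min (median 0.67). The window 5.59 kb past the end of H2bc14 had 15.2, 24.8 and 17.8 CPM at 0 min, 59.2, 61.8 and 46.6 CPM at 15 min and 33.2, 30.9 and 31.5 CPM at 30 min. The 3 times did not overlap. The log2 change was 1.54 ± 0.17 at 15 min (adjusted p = 1.80e-06) and 0.73 ± 0.17 at 30 min (adjusted p = 0.0277, lost without any 1 of 5 libraries). H2bc14's own end region averaged 905, 1130 and 812 CPM at 0, 15 and 30 min, rising by 0.32 ± 0.09 at 15 min (adjusted p = 0.0325) and falling by 0.48 ± 0.09 between 15 and 30 min (adjusted p = 0.00843). Past the end of H4c17 at 7.11 kb the means were 163 ± 39.0, 259 ± 48.9 and 132 ± 17.6 CPM, with a rise of 0.67 ± 0.14 at 15 min (adjusted p = 0.00426). Between 30 and 15 min 3 of the 9 fell, where 0.490% of all regions did. The call of the H2bc14 window between these times was lost without any 1 of 4 libraries. Histone genes stand close together, so a window past 1 of them may lie near others.

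Cytosolic ribosomal protein genes had 21 tested regions, of which 5 rose and 0 fell at 15 min (median 0.33), 3 of them near Rps20. The other 2 were past the ends of Rpl12 (2.95 kb, 0.36 ± 0.10, adjusted p = 0.0221) and Rps4x (4.11 kb, 0.62 ± 0.12, adjusted p = 0.00171), and the Rps4x window lies within a pseudogene annotation, Gm9103. The call near Rpl12 was lost without any 1 of 3 libraries.

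Genes of polymerase II elongation, cleavage and termination had 10 tested regions, and the 1 that rose at 15 min, close to the share over the intergenic regions, lay 1.22 kb before the start of Xrn2. It had 31.5, 36.3 and 43.0 CPM at 0 min, 54.3, 56.6 and 51.5 CPM at 15 min and 46.8, 39.3 and 45.5 CPM at 30 min. The rise was 0.56 ± 0.14 (adjusted p = 0.0133) and was lost without any 1 of 3 libraries. The next region by p, past the end of the elongation factor gene Supt4a, gave -0.35 ± 0.12 (adjusted p = 0.0690). Lineage regulators had 5 tested regions, of which 0 were called at any time. The values nearest to a call at 15 min were 0.69 ± 0.39 near Dnmt3b (adjusted p = 0.305) and 0.14 ± 0.17 near Otx2 (adjusted p = 0.673).

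The intergenic regions were also set beside the nearest gene's own end region. This was the deepest region within 1 kb of either end, so it could lie at the other end from the intergenic region. Of the 817 that rose at 15 min, 518 had a nearest gene with a tested end region. That region rose for 31 (5.98%), fell for 22 (4.25%) and was not called for 465 (89.8%). Over all 5966 tested regions with such a partner the end region rose for 143 (2.40%), fell for 527 (8.83%) and was not called for 5296 (88.8%), so the share not called was near that of all pairs. The median change was 1.00 for the 518 intergenic regions and -0.02 for the end regions. Of 153 that fell at 15 min, the end region fell for 30 (19.6%), rose for 0 and was not called for the rest (80.4%), and the medians were -0.88 and -0.31. Across the 5966 pairs the log2 changes at 15 min had a Pearson correlation of 0.180 and a Spearman correlation of 0.185. This describes regions that share libraries and partly share genes, and carries no test.

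**Figure D5:**
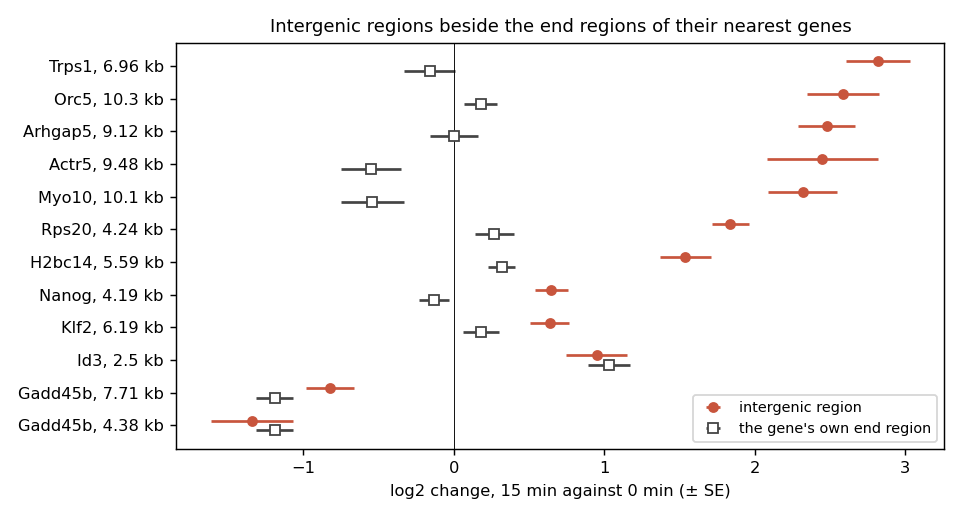
Log2 change at 15 min against 0 min (± SE) of 12 named intergenic regions (filled circles) and of the end regions of their nearest genes (open squares), labelled by gene and distance. An end region can lie at either end of its gene. Near Trps1, Orc5, Arhgap5, Actr5, Myo10 and Rps20 the intergenic region is to the right of an end region that was not called (-0.55 to 0.27). Near Id3 both rose and near Gadd45b both fell.

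Of the 9 deepest of these windows named by the rule, 5 held small RNA genes. The highest at 1 to 5 kb at 0 min lay near Nemf over Rn7s2, a gene for 7SL RNA, with 491, 2820 and 2740 CPM at 0 min, 1250, 1530 and 1210 CPM at 15 min and 423, 1740 and 2090 CPM at 30 min. Its libraries at 0 and at 30 min differed more among themselves than the times did. The window near Gm26689 over Rnu1b2, a U1 gene, had 891 ± 96.6, 1020 ± 101 and 977 ± 358 CPM. The windows near Rdm1 at 5.69 and 10.0 kb and near Snx6 at 7.73 kb hold annotated snRNA genes, at 1760, 1330 and 984 CPM at 0 min. None of these 5 was called, and since such genes have near-identical copies their counts are uncertain. The deep windows without such a gene were more even among libraries. The one near Gm12031 (5.24 kb) rose by 0.48 ± 0.09 (adjusted p = 0.00181), and that near Clstn3, a cell adhesion gene (11.8 kb), fell by 0.27 ± 0.07 (adjusted p = 0.0210, lost with factors from gene ends and without library 15 min 1). The one near Rps6ka1, a kinase gene (11.9 kb), was not called (0.17 ± 0.08, adjusted p = 0.224). The window near Ssr2 rose by 0.28 ± 0.09 (adjusted p = 0.0453), a call lost without any 1 of 7 libraries.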

How the data were processed

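Nascent RNA was measured by PRO-seq in 9 libraries, with nuclei mixed with 1% Drosophila nuclei, which were not analysed here. The authors deposited raw whole-number counts of reads per region and library. Per the submitters' processing notes, HISAT2, featureCounts and DESeq2 1.26.0 were used on mm10, with no role given. The strand counted, and the treatment of overlapping windows, are not given in the sources used here. The deposited region files give the other values used, the start and end of each window of 600 bp and of each merged region, and name Tfit and muMerge.

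Regions were placed with 35099 of 49943 RefSeq genes (protein-coding, lncRNA and transcribed pseudogene) of GRCm38.p6, and the strand of 27025 was known. Counts of all 174289 regions entered 1 fit in edgeR 4.0.16 (R 4.3.3) with filterByExpr, TMM factors and the quasi-likelihood test. The filter left 54299 regions, and adjusted p-values (Benjamini-Hochberg, threshold 0.05) run over all of them. The fitted variation between libraries was 15.1%. CPM values use a library's total in regions (3813365 to 5980366), which is not its sequencing depth, so a 0 allows up to 3 counts. That floor covers counting error only. Replicates of a time differed beyond sampling noise (chi-square per degree of freedom 2.02 to 3.13), and every library was counted as 1 sample. The titles give only a replicate number, and whether it pairs libraries across times is not settled by the correlations. Deviations from the time means correlated at -0.0479 to 0.175 for the same number and at -0.199 to 0.102 for different numbers. Between 0 and 15 min the same-number values were 0.0438, 0.175 and 0.101, and those of different numbers again ran from -0.199 to 0.102.

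The members and lists were chosen with earlier results of these data known. Named regions are, per contrast and direction, the 6 of largest log2 change among those called, averaging 20 counts or more, whose groups do not overlap. To these come the 3 deepest per distance at 0 min, all tested regions of the 5 genes with most called regions, and the 2 of smallest p in each of 7 lists. Other called regions of the lists and the miRNA windows were named after their values were seen. Alternatives were other scalings and filters, DESeq2 1.42.0, a replicate block, other genes or windows, and 9 refits that each omit 1 library. The test of 15 against 0 min was also run on simulated counts. The changed regions were drawn from those averaging 20 counts or more, so recovery in shallower regions was not tried. It recovered 55 of 100 regions changed by a log2 of 1 and 97 of 100 changed by a log2 of 2. Changes of a log2 of 1 or less are therefore often missed. Beside these 55 and 97 true calls, 15 false calls were made among the 51971 regions of that run.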

Additional observations from a re-analysis of the deposited data

Results flagged for a closer look

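For 20 named intergenic regions the value at 30 min differed from that at 15 min by the direct contrast of both times (edgeR quasi-likelihood test, adjusted p at most 0.05), so their change against the shared 0 min libraries was not the same at both times. Of these, 12 were lower at 30 min than at 15 min on the log2 scale. They were near Actr5 (-2.79), Slc45a3 (-2.13), Rrp12 (-1.91), Myo10 (-1.76), Lamc1 (-1.76), Far1 (-1.75), Arhgap5 (-1.74), Orc5 (-1.48), Trps1 (-1.03), H4c17 (-0.97), H2bc14 (-0.81) and Rps20 (-0.78). The other 8 were higher at 30 min than at 15 min, near Ubxn1 (1.52), Pitpnb (1.49), Arf1 (1.39), Cask (1.38), Gopc (1.30), Ifnar1 (1.21), 0610038B21Rik (1.16) and Smarca4 (0.88).

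The contrast lost its call when at least 1 library was left out for Trps1, Lamc1 and H2bc14 among those that were lower, and for Ubxn1, Arf1, Cask, Gopc, Ifnar1 and 0610038B21Rik among those that were higher. It held in every such refit for the other 11. Most of these regions were named by the size of this same contrast or of the change at 15 min, so their number is a description.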

How the results depend on the processing

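Directions were kept under every scaling, filter, test and left-out library run for the balance of rises and falls of all the intergenic regions together. They were also kept for the medians by distance, count and side, and for the log2 changes of the named calls. Changes of named regions that were not called, such as -0.01 ± 0.22 near Ppme1 at 15 min, are not covered. The balance in some smaller groups moved. Within 5 kb before the start, 17 rises and 13 falls between 15 and 30 min became 11 and 14 with factors from gene ends and 5 and 8 without library 15 min 1. Within 5 kb before high-count starts, 45 rises and 45 falls at 15 min became 60 and 25 with factors from gene ends, 42 and 53 with DESeq2 size factors, 41 and 54 with library size alone, and 20 and 28 without library 0 min 1. Of the medians at 15 min added after the data were seen, 4 changed sign under some setting. With factors from gene ends they were 0.17 within 5 kb before the start, 0.11 there near high-count genes and 0.02 for the immediate early and stress genes. For the BMP and LIF targets the median ranged from -0.31 to 0.18 without single libraries. The number of regions called ranged, when each library was left out in turn, from 532 to 1230 at 15 against 0 min, from 44 to 356 at 30 against 0 min and from 63 to 182 at 30 against 15 min, against 1021, 251 and 156 with all libraries. With the replicate block the counts were 1077, 289 and 160, and the block ended no call of a named region. Of the named calls at 15 against 0, 30 against 0 and 30 against 15 min, DESeq2 ended 3, 0 and 1 and factors from gene ends 2, 2 and 1. DESeq2 called 789, 233 and 169, and fits of only the times compared 784, 307 and 151. With TMM factors from gene ends 1368, 367 and 147 were called, with 1272 rises and 96 falls at 15 against 0 min and 354 rises and 13 falls at 30 against 0 min, where factors from all regions gave 817 and 204, then 226 and 25.

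That scaling was also the one that moved most medians, since it shifts all regions by about the same amount: all tested regions had 0.19 at 15 min and 0.11 at 30 min, and all intergenic regions 0.31 and 0.21. At 15 min it gave 0.25, 0.35 and 0.33 by distance (1 to 5, 5 to 10 and 10 to 15 kb), 0.29, 0.25, 0.31 and 0.36 for low, middle, high and no gene-end count, 0.26 before the start and 0.35 past the end. At 30 min the same medians were 0.18, 0.23 and 0.24, then 0.19, 0.16, 0.23 and 0.23, then 0.19 and 0.22. Without the filter on low counts the median at 1 to 5 kb at 15 min was 0.13 and that of all regions 0.07. Leaving out libraries gave medians at 15 min of 0.04 to 0.13, 0.13 to 0.23 and 0.12 to 0.20 by distance, 0.08 to 0.15, 0.04 to 0.13, 0.09 to 0.18 and 0.14 to 0.23 by count, 0.06 to 0.13 before the start and 0.13 to 0.23 past the end. At 30 min these ranges were 0.03 to 0.10, 0.09 to 0.16 and 0.10 to 0.16, then 0.05 to 0.11, 0.00 to 0.10, 0.09 to 0.15 and 0.10 to 0.16, then 0.05 to 0.11 and 0.08 to 0.15.

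Of the named calls, 43 of 57 at 15 min, 7 of 29 at 30 min and 10 of 19 between 30 and 15 min held when any 1 library was left out. The medians and counts of groups by side and distance and of 3 lists, and the values of the window near Smarca4, under other settings were added after the data were seen. Depth limits the test to the 28.6% of these regions that passed the filter, and counts in windows that overlap, or that hold multicopy small RNA genes, are uncertain.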
